A study of Oryctolagus cuniculus with 35 samples.

Results

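Lung tissue from rabbits with pneumococcal pneumonia that had received the antibiotic ceftaroline was compared with lung tissue from healthy rabbits, asking which transcripts stood away from their healthy level after the antibiotic. The comparison used 14 of the 35 libraries in the series, 7 labelled as the ceftaroline group and 7 labelled as healthy. All were New Zealand rabbits. The ceftaroline rabbits combined pneumococcal pneumonia with adverse mechanical ventilation and received 20 mg/kg of ceftaroline-fosamil by intramuscular injection 4 h after inoculation with the bacteria. The healthy rabbits were given NaCl. A further 7 libraries came from rabbits with the same pneumonia and ventilation that received NaCl in place of a therapy, and their values are set beside the main comparison. Lung pieces of the rabbits with pneumonia came from autopsies held 24 h after inoculation, sooner for rabbits that died before then. The labels do not say which rabbits died early, and no hour of autopsy is listed for the healthy rabbits. Infection, ventilation and antibiotic all separated the ceftaroline rabbits from the healthy rabbits, so their parts cannot be told apart in this comparison.

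Streptococcus pneumoniae in the air spaces is sensed by alveolar macrophages and epithelial cells, which release interleukin 1, TNF and chemokines that bring neutrophils and then monocytes into the lung. Thin alveolar type I cells carry gas exchange, type II cells make surfactant, and a tight epithelial and endothelial barrier keeps fluid out of the air spaces. Ceftaroline is a cephalosporin that blocks bacterial cell wall synthesis. It acts on the bacteria, while the host response and the repair that follows have mediators of their own.

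The libraries held 7567008 to 12794413 reads assigned to genes in the healthy group (median 9731971) and 11499403 to 33209729 in the ceftaroline group (median 15675806). Of 23669 annotated genes, 10217 had no read in any of the 35 libraries, among them 6140 with a symbol, so many familiar markers (SFTPC, SFTPD, TLR4, CSF3R, MMP9) were at 0 throughout and say nothing here. Defining genes of lung were read in every healthy library, AGER at 5540 to 9980 and SFTPB at 7030 to 12700 RPM. The labels do not say that each library came from a separate rabbit, so the p-values measure the spread between these libraries. In these pieces of whole lung, fewer cells of a type and less RNA per cell cannot be told apart. Levels are given as RPM, the reads of a gene relative to the size of its library, after joint TMM scaling (which sets the bulk of genes equal between libraries), and differences as log2 of the ratio of ceftaroline to healthy after 0.1 RPM was added to each level.

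Some libraries stood apart. The titles of healthy replicates 6 and 7 carry the same letter and number as those of ceftaroline replicates 5 and 7, and the labels do not say whether any of these come from the same rabbit. Leaving out those healthy libraries, a choice made after seeing the data, left 5153 genes called in place of the 5536 given below. All 7 healthy libraries and none of the ceftaroline libraries carry the mark S00 in their sample names, so that mark and the group cannot be told apart. Of the NaCl libraries, only replicate 2 carries it. A title ending (PD or PG, not explained in the labels) marks 5 healthy libraries, NaCl replicates 5, 6 and 7, and no ceftaroline library. On the first principal component of the 21 libraries, which took 55.9% of the variance, healthy lungs lay between -88.1 and -75. The NaCl lungs divided by title: the 4 without an ending lay between 57.5 and 69.8, and the 3 whose titles end in PG between 22.7 and 34.4. NaCl replicate 2, the one with the mark S00, lay at 60.8. On the second component (10.4%) those 3 lay between -69.8 and -52.3, below every other library. Ceftaroline replicates 1, 4 and 6 lay at 68.9, 67.9 and 65.5 on the first component, among the NaCl lungs without an ending. Replicate 2 lay at 47.1, between both sets of NaCl lungs, and replicate 5 at 26.4, level with the PG lungs on the first component but at 27.2 on the second. In contrast, replicate 3 lay at -0.4 and replicate 7 at -35, between the healthy and the NaCl lungs.

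**Figure D1:**
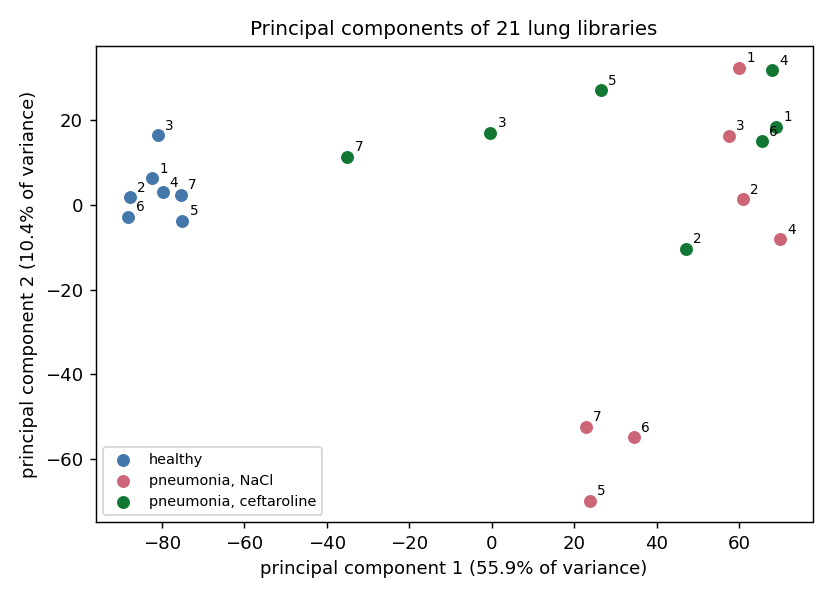
First and second principal components of log2 levels in 7 healthy, 7 NaCl and 7 ceftaroline lungs, each point a lung, with the ceftaroline lungs numbered by replicate. The first component (55.9% of the variance) sets healthy lungs at -88.1 to -75 apart from the rest, with ceftaroline replicate 7 at -35 and replicate 3 at -0.4 the nearest to them.

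Ceftaroline-treated lungs differed widely from healthy lungs. Of 9591 genes tested with limma, 3035 were higher (31.6%) and 2501 were lower (26.1%) in the ceftaroline group at a Benjamini-Hochberg adjusted p under 0.05, 5536 in all. The difference was at least 2-fold for 1403 of the higher and 1451 of the lower genes, and at least 8-fold for 168 and 108. For 1149 genes (12%) every ceftaroline lung lay above every healthy lung, and for 886 (9.24%) every ceftaroline lung lay below. Counts of list members are to be read against these shares, and those of the T and NK cell, MHC class II, alveolar fluid transport, fibroblast and matrix, hypoxia and cell cycle lists lie near them in at least 1 direction. The same holds for the endothelium list and the antioxidant and haem defence list. The median difference over all genes tested was 0.09 and the median size of the difference 0.62, with a median standard error of 0.22. Scaled by library totals in place of TMM, 1946 genes were higher and 3151 lower and the median over all genes moved to -0.17, so a list with a median near 0 has no direction that holds under both scalings. The ceftaroline lungs also varied more among themselves than the healthy lungs, with a median SD of log2 level of 0.43 against 0.33. In NaCl lungs it was 0.48, so a wider spread than in healthy lung was not particular to the ceftaroline lungs. Between ceftaroline and healthy lungs, 6390 of the 9591 genes had the larger SD in the ceftaroline group.

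At the other end, 4328 genes had a 95% confidence interval of the difference that lay wholly within 2-fold in either direction, 1193 of them called. Of the 4055 genes not called, 920 had an interval that reached past 2-fold, so for these the 14 libraries do not show closeness to healthy lung.

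How far each ceftaroline lung stood from healthy lung was measured on the genes that differed at least 2-fold between NaCl and healthy lungs, 1606 higher and 1787 lower in NaCl lungs, a choice made after seeing the data. The same healthy and NaCl libraries picked these genes and set the scale, so the distance between its ends follows in part from that choice. Taking the healthy mean as 0% and the NaCl mean as 100%, the median of the higher genes stood at 102.9% in replicate 1, 93.5% in replicate 2, 93.8% in replicate 4 and 102.6% in replicate 6. It stood at 74.7% in replicate 5, 56.8% in replicate 3 and 34.2% in replicate 7. The lower genes stood at 109.7% in replicate 1, 94.9% in replicate 2, 109% in replicate 4 and 104.8% in replicate 6. They gave the same order at its lower end, with 71.8% in replicate 5, 51.1% in replicate 3 and 26% in replicate 7. A further scale kept these genes and took the mean of the 4 NaCl lungs without a title ending as 100%. The higher genes then stood at 91.1% to 99.6% in replicates 1, 2, 4 and 6, at 73% in replicate 5, 55.5% in replicate 3 and 32.8% in replicate 7. On that scale the lower genes stood at 87.7% to 102.7% in replicates 1, 2, 4 and 6. They stood at 67.3% in replicate 5, 48.3% in replicate 3 and 25.1% in replicate 7. In replicate 7 the ratio of TMM-scaled to counted library size was 1.27, the highest of the ceftaroline lungs, and in replicate 6 it was 0.75, the lowest. The scaling thus moved with the same libraries, and its part was not tested.

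**Figure D2:**
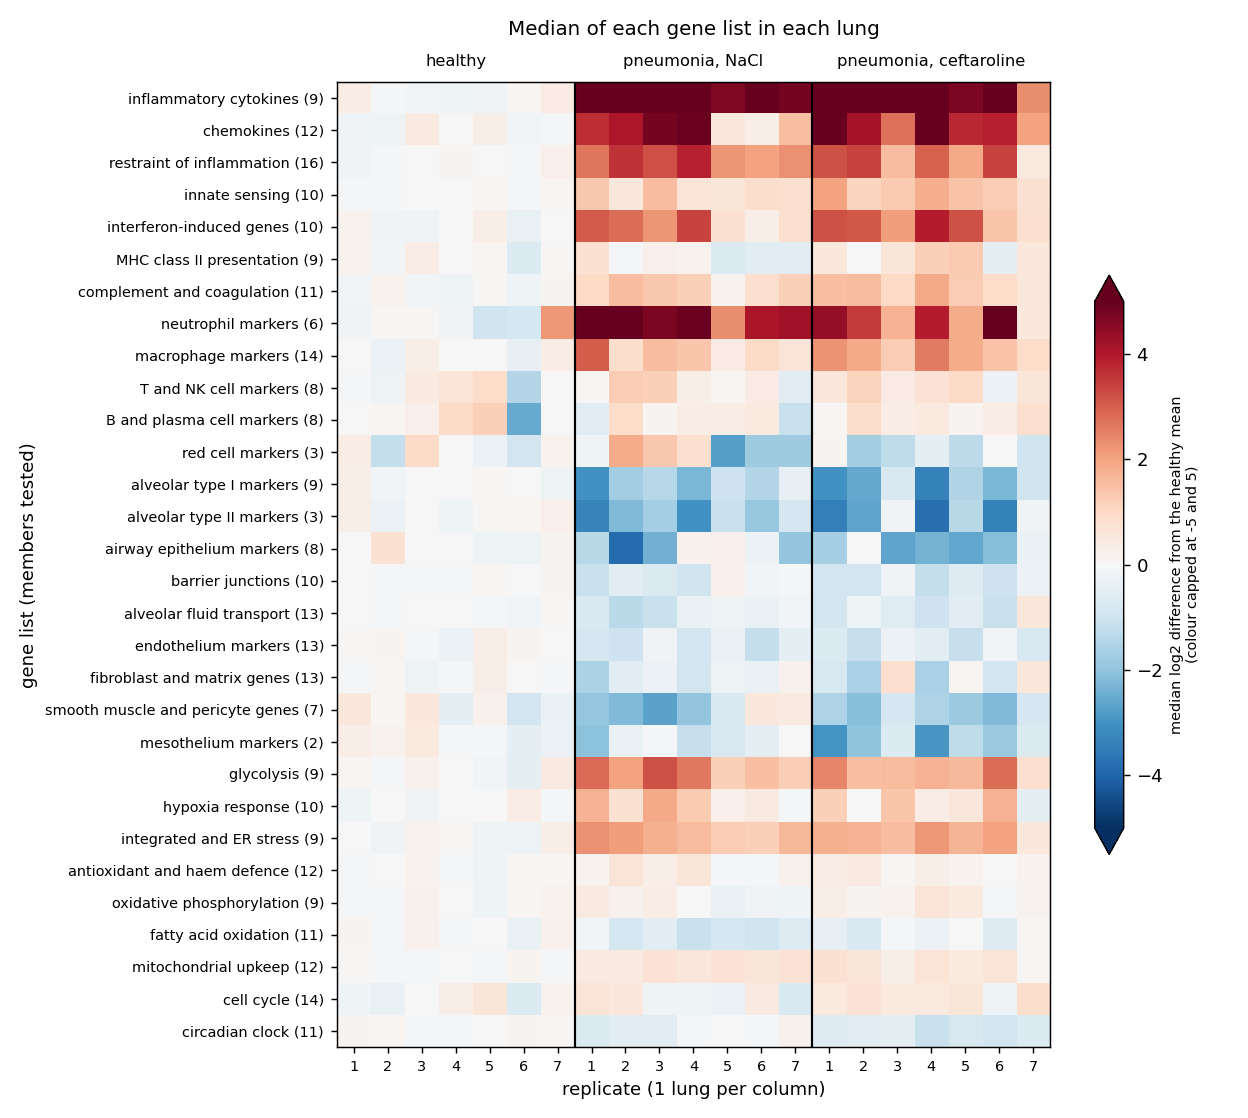
Median log2 difference from the healthy mean over the tested members of each gene list (rows) in each lung (columns), for healthy, NaCl and ceftaroline lungs. Red is above and blue below the healthy mean, and colours stop at 5 either way. Ceftaroline replicate 7 is the palest ceftaroline column for the inflammatory cytokines (2.32, against 7.67 in replicate 6).

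Leukocyte markers rose. Of 6 neutrophil genes tested, 5 rose and none fell, where 31.6% of all genes rose, with a median difference of 3.26 against 0.09 over all genes, and of 14 macrophage genes 9 rose and 1 fell (median 1.75). S100A8, a subunit of the calprotectin of neutrophils and monocytes, was at 463, 1030 and 2920 RPM in the lowest, median and highest healthy lung and at 1560, 8510 and 47500 in the ceftaroline lungs. The ranges overlapped, since ceftaroline replicate 7 lay below healthy replicate 7, and the difference was 3.20 (SE 0.65, limma adjusted p = 0.000746). CXCR1, a receptor for CXCL8 on neutrophils, ran from 3.76 to 23.2 in healthy lungs and from 50 to 501 in ceftaroline lungs without overlap, a difference of 3.53 (SE 0.49, adjusted p = 4.33e-05).

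CAMP, a neutrophil granule peptide, was at 3.15, 4.49 and 101 in healthy lungs and at 10.1, 302 and 1230 in ceftaroline lungs. Healthy replicate 7 at 101 lay inside the ceftaroline range, and the difference was 4.15 (SE 1.15, adjusted p = 0.00614). It was 4.78 without healthy replicate 7, 4.77 without ceftaroline replicate 7, and 3.61 without ceftaroline replicate 6. The granule protein gene LTF rose by 3.33 (SE 0.88, adjusted p = 0.00472), again with overlap. The summed level of the neutrophil list ran from 1240 to 9240 in healthy lungs and from 4300 to 137000 in ceftaroline lungs. CSF3R, FPR1, FPR2, MMP9, PADI4 and LCN2 were at 0 in every library.

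Among macrophage genes MSR1, a scavenger receptor, ran from 23.3 to 66.1 in healthy lungs and from 172 to 1150 in ceftaroline lungs, a difference of 3.41 (SE 0.37, adjusted p = 7.68e-06). MRC1, the mannose receptor of resident alveolar macrophages, rose by 1.48 (SE 0.18, adjusted p = 2.18e-05), and CD163, a receptor for haemoglobin bound to haptoglobin, rose by 3.04 (SE 0.54). PPARG, a nuclear receptor of mature alveolar macrophages, was the member that fell (-0.82, SE 0.22, adjusted p = 0.00553). The summed macrophage list ran from 586 to 1040 in healthy and from 1600 to 5750 in ceftaroline lungs, without overlap. These leukocyte sums moved with the groups for every list that follows, and their part in those results was not tested.

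Lymphocyte and red cell markers moved less. Of 8 T and NK cell genes 2 rose and 1 fell (median 0.57), and 1 rose without ceftaroline replicate 4. PRF1 (perforin) and TBX21 (a factor of type 1 lymphocytes) rose by 1.76 and 1.31, and CD247, the zeta chain of the T cell receptor complex, fell. CD247 ran from 52.7 to 76.1 in healthy lungs and from 10.2 to 21.2 in ceftaroline lungs, a difference of -1.97 (SE 0.16, adjusted p = 8.15e-07). CD2 and CD4 lay at 0.77 and 0.50 (adjusted p = 0.284 and 0.387). BLK, a kinase of B cells, was the 1 of 8 B and plasma cell genes that rose (0.51, SE 0.15, adjusted p = 0.0103), a call lost under scaling by library totals (0.25, adjusted p = 0.268), and the median of 0.59 of that list was 0.19 without healthy replicate 6. Without that library, in which MS4A1 and JCHAIN were the lowest of the healthy lungs, TNFRSF17 was lower by limma (-0.71, adjusted p = 0.0155), and without ceftaroline replicate 7 likewise (-0.65, adjusted p = 0.0386). With all libraries limma gave -0.56 (adjusted p = 0.0714), while edgeR (-0.64, adjusted p = 0.0421), DESeq2 (-0.72, adjusted p = 0.0152) and scaling by library totals (-0.82, adjusted p = 0.0289) called it lower. Of 3 red cell genes, the globin gene HBB2, whose reads near-identical globin genes can share, fell by 1.24 (SE 0.38, adjusted p = 0.012), and it varied from 5300 to 25600 in ceftaroline lungs and from 11400 to 43800 in healthy lungs.

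Inflammatory cytokines lay far above healthy lung. Of 9 tested members 7 rose and 1 fell, against the 31.6% and 26.1% of all genes given above, and in those 7 no ceftaroline lung overlapped a healthy lung, as in 12% of all genes. The list median was 5.69. A gene was tested where at least 7 of the 14 libraries reached 1 RPM. IL6 and CSF3 lay under that level in every healthy lung and were tested only through the ceftaroline lungs, so their call follows in part from the filter, and the same holds for IL10, IL36A and CA12 below.

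IL6, the inducer of the acute phase response, was at 0, 0.182 and 0.508 in the lowest, median and highest healthy lung and at 2.15, 317 and 903 in the ceftaroline lungs. The difference was 8.71 (SE 1.09, adjusted p = 2.17e-05), and it was 9.69 without ceftaroline replicate 7, the lowest of its group. CSF3, the growth factor of neutrophil production, was at 0 to 0.362 in healthy lungs and at 1.2, 131 and 276 in ceftaroline lungs, a difference of 7.91 (SE 0.96, adjusted p = 1.76e-05) or 8.81 without replicate 7. With levels at or near 0 in healthy lungs, both values depend on the 0.1 added before the log.

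CXCL8, the main neutrophil attractant, was at 3.62, 8.52 and 10.1 in healthy lungs and at 229, 1380 and 19000 in ceftaroline lungs. The difference was 7.49 (SE 0.75, adjusted p = 4.38e-06), and 6.86 without ceftaroline replicate 6, the highest lung. IL1A and IL1B, both forms of interleukin 1, rose by 6.37 (SE 0.57) and 4.18 (SE 0.58). IL1B ran from 14.8 to 28.6 in healthy lungs and from 59.6 to 2350 in ceftaroline lungs, again lowest in replicate 7 and highest in replicate 6. TNF, an early macrophage cytokine, rose by 4.67 (SE 0.47, adjusted p = 4.38e-06) and IL23A, a subunit of interleukin 23, by 5.69 (SE 0.68). IL18 was the member that fell (-0.67, SE 0.25, adjusted p = 0.0312), a call that edgeR did not make and that was lost without healthy replicate 2 or 5 or without ceftaroline replicate 1, 2 or 4.

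IFNG, the interferon of T and NK cells, and IL17A, which drives neutrophil responses, were too low for the filter and were not tested. IFNG was at 0 to 0.182 in healthy lungs and at 0.35, 13.4 and 38.4 in ceftaroline lungs, and IL17A was at 0 in all 7 healthy lungs and at 0.05 to 2.35 in ceftaroline lungs. In both genes the groups did not overlap. For IL17A the lowest ceftaroline level is near that of a single read. The healthy libraries were also shallower (median 9731971 against 15675806 reads), so its lack of overlap is limited by depth.

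**Figure D3:**
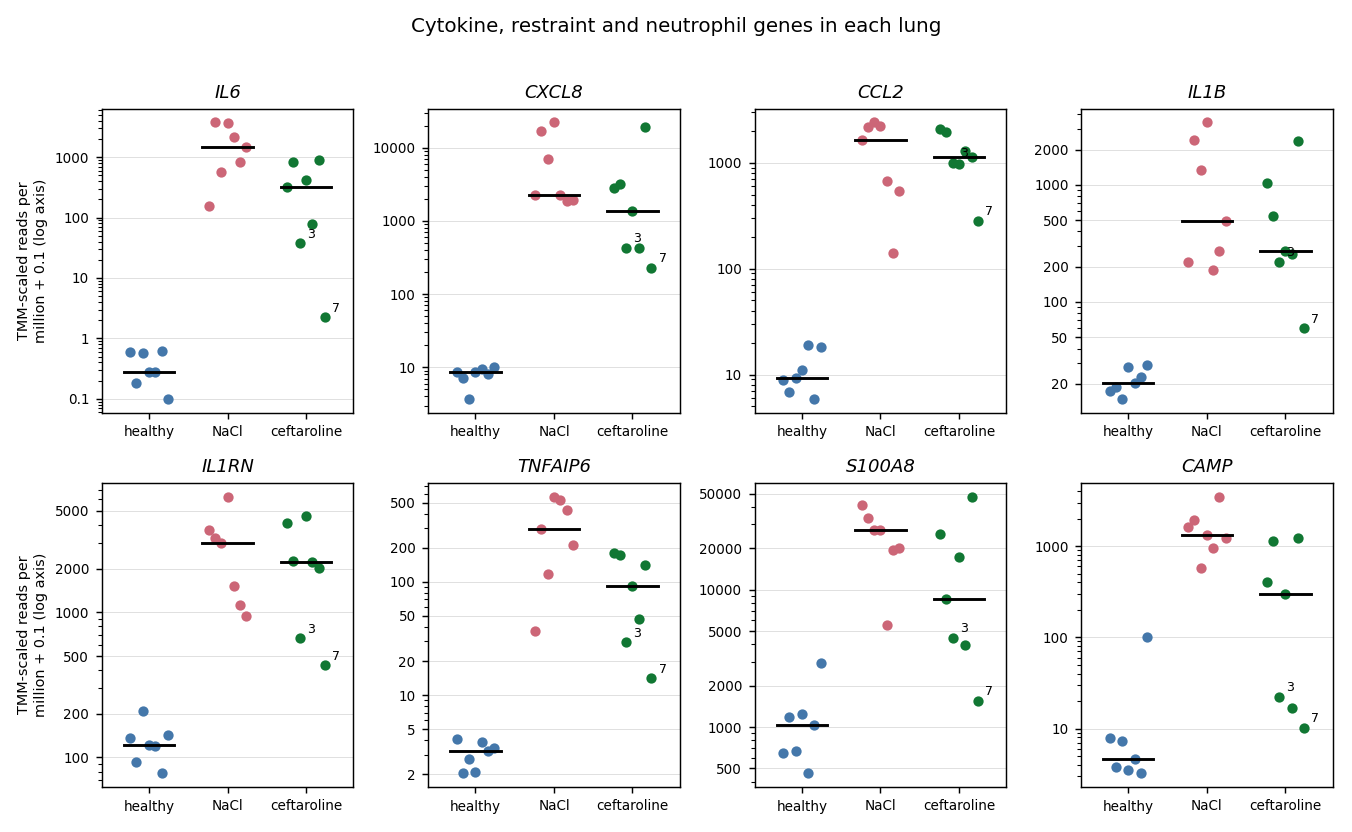
Levels of 8 inflammatory genes in each healthy, NaCl and ceftaroline lung, in TMM-scaled RPM plus 0.1 on a log axis, with bars at the group medians and ceftaroline replicates 3 and 7 numbered. Median IL6 was 0.182 in healthy and 317 in ceftaroline lungs, and ceftaroline replicate 7 is the lowest lung of its group for IL6, CXCL8, CCL2, IL1B and S100A8.

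Chemokines followed. Of 12 tested, 10 rose and none fell (median 3.72), and 9 of them did not overlap between groups, against 31.6% and 12% of all genes. CCL2, which draws monocytes, was at 5.8, 9.17 and 18.8 in healthy lungs and at 282, 1130 and 2060 in ceftaroline lungs, a difference of 6.69 (SE 0.39, adjusted p = 4.88e-08). CCL4, made by activated macrophages, rose by 7.33 (SE 0.78), or by 7.92 without replicate 7, and CXCL5, a neutrophil attractant, by 6.42 (SE 0.41). The interferon-induced T cell attractants CXCL9, CXCL10 and CXCL11 rose by 3.75, 5.42 and 6.37 (SE 0.61, 0.71 and 0.85), each highest in ceftaroline replicate 4. Lymphoid chemokines split: CCL19 rose by 3.68 (SE 0.57), while CXCL13 lay at -0.15 (adjusted p = 0.885) and CCL21 at -0.52 (adjusted p = 0.0982).

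Genes that restrain inflammation rose beside the cytokines. Of 16 tested, 14 rose and 1 fell (median 2.44), 9 of the risen genes without overlap. IL1RN, the antagonist of the interleukin 1 receptor, was at 78, 121 and 208 in healthy lungs and at 431, 2240 and 4630 in ceftaroline lungs. Every ceftaroline lung lay above every healthy lung, and the difference was 3.85 (SE 0.46, adjusted p = 1.54e-05). The decoy receptor IL1R2 rose by 5 (SE 0.70), TNFAIP6, a secreted hyaluronan-binding protein, by 4.55 (SE 0.50), and NFKBIZ, a nuclear regulator of NF-kB targets, by 3.67 (SE 0.40). IL10, the anti-inflammatory interleukin, was at 0 to 0.485 in healthy lungs and at 1.08, 5.78 and 107 in ceftaroline lungs, a difference of 3.89 (SE 0.82, adjusted p = 0.000991) that was 3.18 without ceftaroline replicate 6. TSC22D3, a target of glucocorticoids, fell by 1.05 (SE 0.22, adjusted p = 0.00101), from 758 to 1310 in healthy lungs to 323 to 857 in ceftaroline lungs.

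Pattern receptors of the innate response rose in part. Of 10 tested, 8 rose and 1 fell (median 1.18), and 6 rose under scaling by library totals. CLEC4E, a receptor for microbial glycolipids and dead cells, rose by 4.10 (SE 0.41, adjusted p = 4.38e-06). TLR2, the receptor for bacterial lipoproteins, was at 17.3 to 20.9 in healthy lungs and at 36.6, 69.2 and 229 in ceftaroline lungs, a difference of 2.12 (SE 0.33, adjusted p = 0.000108). In NaCl lungs TLR2 ran from 17.4 to 90.9, overlapping both. IRAK3, which dampens Toll-like receptor signals, rose by 1.89 (SE 0.28), and CLEC7A, a receptor for fungal beta-glucan, fell by 1.08 (SE 0.27, adjusted p = 0.00293).

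All 10 tested interferon-induced genes rose, with a median of 2.70, and 9 rose under scaling by library totals. OAS2, a sensor of double-stranded RNA, was at 5.9, 19.3 and 25.1 in healthy lungs and at 61.7, 342 and 1070 in ceftaroline lungs, a difference of 4.16 (SE 0.49, adjusted p = 1.41e-05). The groups did not overlap. IRF1 rose by 3.48 (SE 0.46) and DDX58, the RNA sensor RIG-I, by 2.67 (SE 0.40). ISG15, RSAD2 and IRF7 were at 0 in every library. The list median was 3.91 in ceftaroline replicate 4 and 0.79 in replicate 7.

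Genes of MHC class II presentation, which shows antigen to T cells, mostly did not pass the test. Of 9 tested, 3 rose and none fell (median 0.36), and only CTSS rose under scaling by library totals. CTSS, the protease that trims the invariant chain, ran from 218 to 331 in healthy lungs and from 471 to 1650 in ceftaroline lungs, a difference of 1.65 (SE 0.25, adjusted p = 7.61e-05). CIITA, the master regulator of the class II genes, was at 26, 39.7 and 47.2 in healthy lungs and at 31.9, 80.7 and 151 in ceftaroline lungs. Ceftaroline replicate 6 alone lay within the healthy range, and the difference was 0.99 (SE 0.29, adjusted p = 0.00806), or 0.73 (adjusted p = 0.0676) under library totals. CD74, the invariant chain itself, lay at 0.32 (adjusted p = 0.265).

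Complement and coagulation genes rose as well, 9 of 11 tested against 1 that fell (median 1.23). C1R and C1S, the proteases of the first complement component, rose by 1.23 (SE 0.27) and 1.22 (SE 0.25, adjusted p = 0.000862). C1S was at 133, 216 and 369 in healthy lungs, at 154, 210 and 352 in NaCl lungs and at 339, 421 and 773 in ceftaroline lungs. SERPINE2, an inhibitor of thrombin, rose by 2.53 (SE 0.26), PLAU, the urokinase that starts clot lysis, by 1.26 (SE 0.14), and F3, tissue factor, by 0.92 (SE 0.20). VWF, the endothelial clotting factor, fell by 1.10 (SE 0.26, adjusted p = 0.0019).

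**Figure D4:**
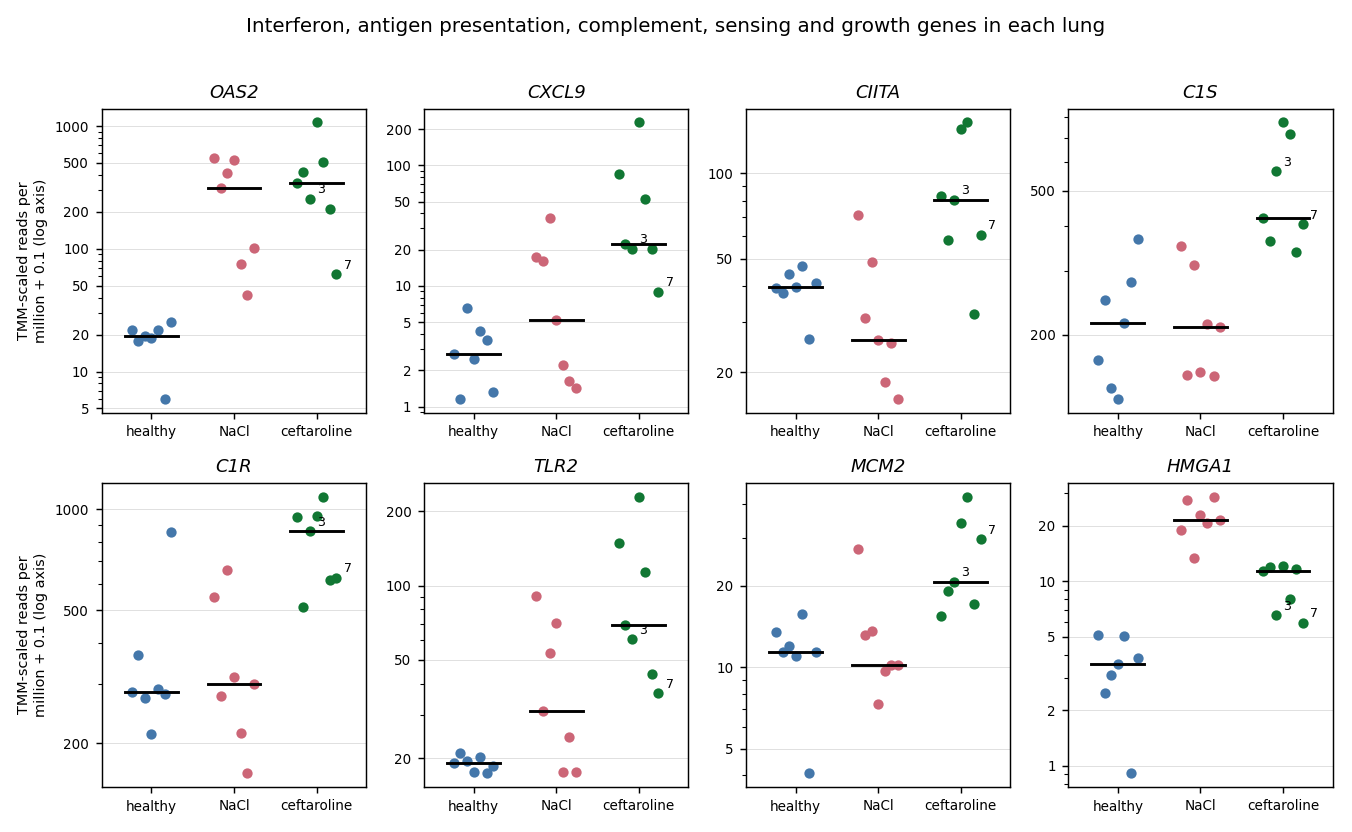
Levels of OAS2, CXCL9, CIITA, C1S, C1R, TLR2, MCM2 and HMGA1 in each healthy, NaCl and ceftaroline lung, in TMM-scaled RPM plus 0.1 on a log axis, with bars at the group medians and ceftaroline replicates 3 and 7 numbered. Median C1S was 216 in healthy, 210 in NaCl and 421 in ceftaroline lungs.

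Alveolar epithelial genes were lower. All 9 tested type I cell genes fell, with a median of -2.03 against 0.09 over all genes, and 5 of them did not overlap between groups, where 26.1% of all genes fell and 9.24% lay wholly below. AGER, a receptor of the type I cell's basal membrane, was at 5540, 6660 and 9980 in healthy lungs and at 682, 2320 and 4100 in ceftaroline lungs, a difference of -1.78 (SE 0.33, adjusted p = 0.000404). EMP2, a membrane protein of type I cells, ran from 1140 to 1570 in healthy lungs and from 124 to 560 in ceftaroline lungs, a difference of -2.47 (SE 0.31, adjusted p = 2.21e-05). SEMA3B fell by 3.36 (SE 0.43) and RTKN2 by 3.23 (SE 0.41), with the ceftaroline lungs all below the healthy lungs. CAV1, the caveolin of type I and endothelial cells, fell by 1.25 (SE 0.21). The list stayed 9 of 9 lower without ceftaroline replicate 7 and under scaling by library totals, and its median in single ceftaroline lungs ran from -3.38 in replicate 4 to -0.78 in replicate 3.

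All 3 tested type II cell genes fell, with overlap. SFTPB, a surfactant protein, was at 7030, 11000 and 12700 in healthy lungs and at 746, 1630 and 8150 in ceftaroline lungs, a difference of -2.19 (SE 0.51, adjusted p = 0.00189). The type II cell phosphate transporter SLC34A2 was at 1170, 1450 and 2330 in healthy lungs and at 16.6, 132 and 1530 in ceftaroline lungs. Ceftaroline replicates 3 and 7, at 1530 and 1380, lay within the healthy range and replicate 4 lay lowest. The difference in SLC34A2 was -3.30 (SE 0.93, adjusted p = 0.00677) and the call was lost with edgeR (-1.62, adjusted p = 0.108) and DESeq2 (-1.67, adjusted p = 0.0746). SFTPC, SFTPD and ABCA3 were at 0 in every library. In the type II list, ceftaroline replicates 3 and 7 had medians of -0.17 and -0.16 from the healthy mean, against -3.78 in replicate 4.

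Of 10 tested junction genes, 5 fell and 1 rose (median -0.58). OCLN, the tight junction protein occludin, was at 195, 230 and 321 in healthy lungs and at 31.3, 62.4 and 162 in ceftaroline lungs, a difference of -1.81 (SE 0.29, adjusted p = 0.000125) without overlap. CGN, the junction adaptor cingulin, fell by 1.91 (SE 0.26) and MARVELD2, the tricellulin of contacts between several cells, by 1.34 (SE 0.22). CLDN7, a claudin, was the member that rose (1.32, SE 0.13, adjusted p = 2.77e-06), from 107 to 175 in healthy lungs to 284 to 399 in ceftaroline lungs. CDH5 and CDH1, the cadherins of endothelium and epithelium, lay at 0.04 and -0.24 (adjusted p = 0.913 and 0.39).

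Alveolar fluid transport genes were mixed. Of 13 tested, 4 fell and 2 rose (median -0.59), with 1 risen gene under library totals and without healthy replicate 1, 2, 3, 5 or 6 or ceftaroline replicate 1, 2, 3 or 7. AQP8, a water channel, shared the lowest adjusted p of all genes tested with CA12, described below. It was at 37.3, 45.9 and 104 in healthy lungs and at 0.232, 0.414 and 1.31 in ceftaroline lungs, a difference of -6.53 (SE 0.35, adjusted p = 3.58e-08). AQP8 passed the filter through the healthy lungs, so its call follows in part from the filter. With levels near 0 in ceftaroline lungs, its value also depends on the 0.1 added before the log. CFTR, the chloride channel, fell by 0.93 (SE 0.25). The sodium channel subunits SCNN1A, SCNN1B and SCNN1G lay at -0.41, -0.64 and -0.07 and none passed (adjusted p = 0.234, 0.186 and 0.916).

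**Figure D5:**
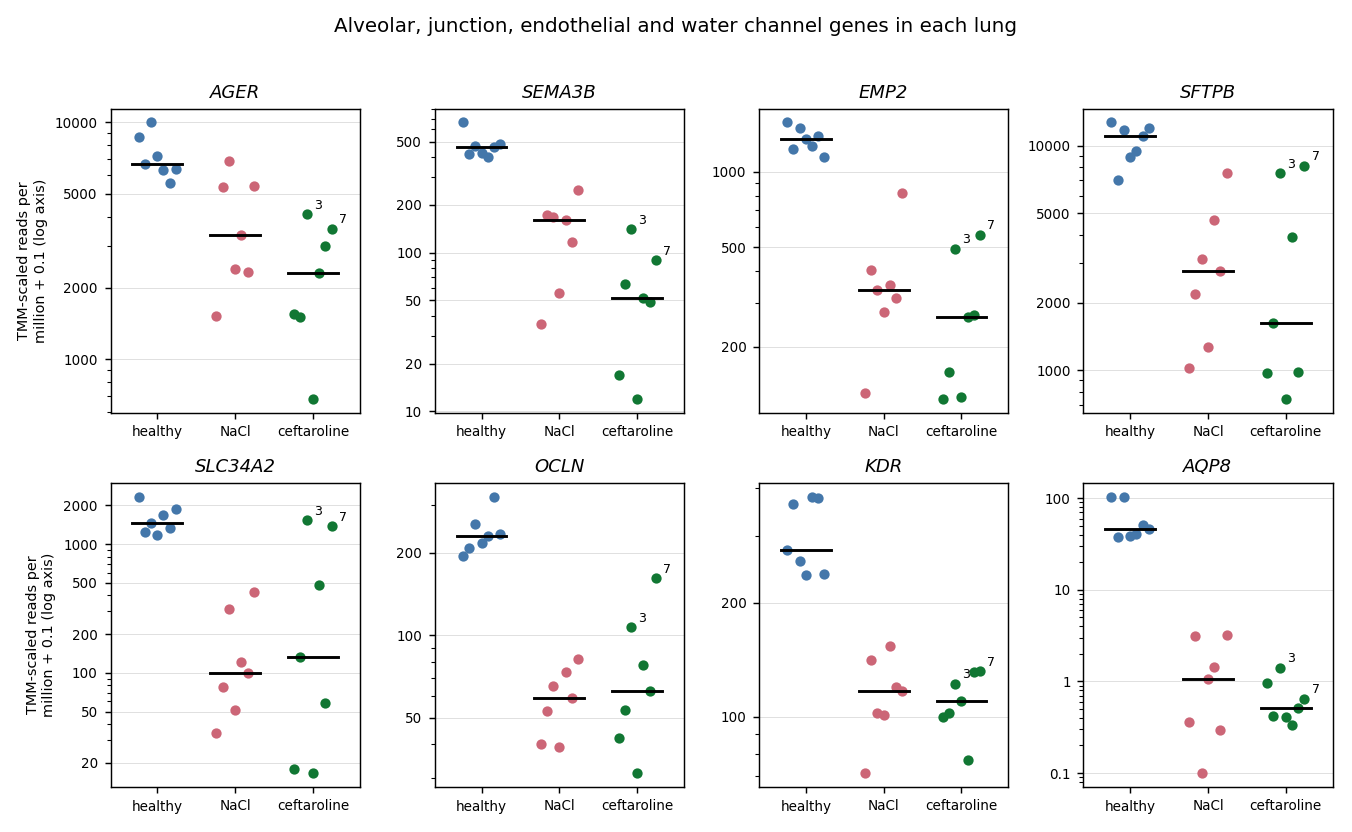
Levels of AGER, SEMA3B, EMP2, SFTPB, SLC34A2, OCLN, KDR and AQP8 in each healthy, NaCl and ceftaroline lung, in TMM-scaled RPM plus 0.1 on a log axis, with bars at the group medians and ceftaroline replicates 3 and 7 numbered. All ceftaroline lungs lie below all healthy lungs for AGER, SEMA3B, EMP2, OCLN, KDR and AQP8, while SFTPB and SLC34A2 overlap.

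Of 8 airway epithelium genes, 5 fell and none rose (median -1.58), and 3 fell with edgeR. The 5 were ciliary genes, among them the dynein genes DNAI1 (-1.84, SE 0.33, adjusted p = 0.00032) and DNAH5 (-2.14, SE 0.39). SCGB3A2, a secretoglobin of the small airways, lay at -1.10 (adjusted p = 0.0766). Of 7 smooth muscle and pericyte genes, 5 fell and none rose (median -1.52). ITGA8, an integrin of lung mesenchyme, was at 313, 493 and 564 in healthy lungs and at 9.57, 26.8 and 261 in ceftaroline lungs, a difference of -3.43 (SE 0.63, adjusted p = 0.000377). LMOD1, an actin nucleator of smooth muscle, fell by 2.29 (SE 0.29). UPK3B, a mesothelial gene, fell by 3.68 (SE 0.50, adjusted p = 4.1e-05), while KRT19, which epithelia share, lay at 0.13 (adjusted p = 0.655) and at -0.13 under library totals, so it has no direction.

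Endothelial genes moved both ways. Of 13 tested, 7 fell and 3 rose (median -0.72). The 3 that rose were adhesion molecules for leukocytes: SELP (3.67, SE 0.62, adjusted p = 0.000194), SELE (3.43, SE 0.54) and VCAM1 (0.86, SE 0.30). SELP was at 17, 23.7 and 64.1 in healthy lungs and at 36.9, 557 and 1140 in ceftaroline lungs, with replicate 7 as the lowest and the only lung within the healthy range. Growth factor receptors of the endothelium fell: KDR, the VEGF receptor, by 1.45 (SE 0.16, adjusted p = 8.2e-06) and TEK, the angiopoietin receptor, by 1.59 (SE 0.23). KDR ran from 236 to 380 in healthy lungs and from 77 to 132 in ceftaroline lungs. FLT1, CLDN5, NOS3 and ANGPT2 were at 0 in every library.

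Of 13 fibroblast and matrix genes, 5 rose and 3 fell (median -0.84), and 6 fell without ceftaroline replicate 3 or without replicate 7. ADAMTS4, a protease of matrix proteoglycans, was at 1.8, 2.9 and 6.75 in healthy lungs and at 10.3, 1120 and 2210 in ceftaroline lungs. The difference was 6.58 (SE 1.02, adjusted p = 9.81e-05), and 7.39 without replicate 7. HAS2, which makes hyaluronan, rose by 3.29 (SE 0.50), VCAN, the proteoglycan versican, by 2.17 (SE 0.29), and FN1, fibronectin, by 0.79 (SE 0.19). TCF21 and FGF10, genes of the alveolar fibroblast, fell by 1.94 (SE 0.48) and 1.88 (SE 0.48). The collagen genes COL1A1 and COL3A1 lay at -0.30 and -0.95 (adjusted p = 0.231 and 0.26), with COL3A1 spread from 67.5 to 1620 in ceftaroline lungs and highest in replicate 7.

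All 9 tested glycolysis genes rose (median 1.67), also under library totals, and 6 did not overlap between groups. PKM, pyruvate kinase, was at 271, 472 and 612 in healthy lungs and at 993, 3470 and 8340 in ceftaroline lungs, a difference of 3.03 (SE 0.38, adjusted p = 2.21e-05). HK2, a hexokinase, ran from 108 to 142 in healthy lungs and from 257 to 517 in ceftaroline lungs (1.67, SE 0.14, adjusted p = 1.16e-06), and SLC2A1, the glucose transporter GLUT1, rose by 2.45 (SE 0.39). Of 10 hypoxia response genes, 4 rose and 2 fell (median 0.59). HIF1A, the oxygen-regulated factor, rose by 2.69 (SE 0.41) and ADM, adrenomedullin, by 2.17 (SE 0.32), while EPAS1, the related factor of endothelium and type II cells, fell by 1.01 (SE 0.17, adjusted p = 0.000179).

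Mitochondrial genes were mixed. Of 9 tested oxidative phosphorylation genes 4 rose and none fell (median 0.26), while under library totals 2 rose and 1 fell (median 0), so the list has no direction. Among its members COX5B lay at 0 (adjusted p = 0.988). Of 11 fatty acid oxidation genes 5 fell and 2 rose (median -0.27), and 1 rose without ceftaroline replicate 5. Of 12 mitochondrial upkeep genes 5 rose and 1 fell, with 3 risen under library totals. PINK1, a kinase that tags failing mitochondria, was the member that fell, and it ran from 464 to 771 in healthy lungs and from 123 to 313 in ceftaroline lungs (-1.74, SE 0.21, adjusted p = 1.84e-05). PPRC1, a co-activator of mitochondrial genes, rose by 1.23 (SE 0.12).

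Genes of the integrated and endoplasmic reticulum stress response rose, while antioxidant and haem defence genes were mixed. Of 9 integrated and endoplasmic reticulum stress genes 7 rose and none fell (median 1.68). ASNS, asparagine synthetase, a target of ATF4, was at 9.25, 13.8 and 18.3 in healthy lungs and at 43.3, 65.1 and 101 in ceftaroline lungs (2.21, SE 0.19, adjusted p = 1.3e-06), and SDF2L1, a chaperone partner, rose by 1.68 (SE 0.21). Of 12 antioxidant and haem defence genes 5 rose and 3 fell, and 5 fell without ceftaroline replicate 7. The list median of 0.07 turned to -0.20 under library totals and to -0.02 under DESeq2 size factors. GCLM, for glutathione synthesis, and HMOX1, which breaks down haem, rose by 2.64 (SE 0.28) and 2.28 (SE 0.30), while PRDX6, a peroxiredoxin, fell by 1.46 (SE 0.19) and SOD3, the extracellular superoxide dismutase, by 3.61 (SE 0.55).

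Of 14 cell cycle genes, 5 rose and none fell (median 0.37), with 2 risen under library totals, a share near the 31.6% of all genes that rose. MCM2, a helicase subunit of DNA replication, was at 3.97, 11.3 and 15.6 in healthy lungs, at 7.21, 10.1 and 27.3 in NaCl lungs and at 15.4, 20.6 and 42.6 in ceftaroline lungs. The difference from healthy lung was 1.18 (SE 0.30, adjusted p = 0.0033), with the ranges just overlapping. CDKN1A, the inhibitor p21 that halts the cycle, rose by 1.46 (SE 0.32), and the mitotic genes PLK1 and CCNB1 lay at -0.05 and 0.32 (adjusted p = 0.903 and 0.525). Of 11 clock genes 6 fell and 1 rose (median -0.67). CIART, a repressor of the clock, was at 176, 221 and 327 in healthy lungs and at 41.3, 53.4 and 69.7 in ceftaroline lungs (-2.04, SE 0.16, adjusted p = 5.76e-07), and NR1D2 fell by 1.12 (SE 0.24). The hour of day at autopsy is not in the labels.

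Among all genes with a symbol and no overlap between groups, the 8 largest rises were IL6, CSF3, CXCL8, CCL4, IL36A, CA12, ARG1 and CCL2. IL36A, an epithelial member of the interleukin 1 family, rose by 6.86 (SE 0.62). CA12, a membrane carbonic anhydrase, was at 0.121, 0.49 and 0.966 in healthy lungs, at 10.6, 18.8 and 119 in NaCl lungs and at 25.1, 70.9 and 95.8 in ceftaroline lungs, a difference from healthy lung of 6.82 (SE 0.38, adjusted p = 3.58e-08). ARG1, the arginase that uses up arginine, was at 5.62, 10.6 and 16.2 in healthy lungs and at 121, 1520 and 3660 in ceftaroline lungs (6.76, SE 0.58, adjusted p = 1.3e-06). CA12 and IL36A lay under 1 RPM in every healthy lung and were tested only through the ceftaroline lungs, so their calls follow in part from the filter.

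The 8 largest falls were AQP8, GLIS1, METTL7B, MYOC, SLC6A2, CA14, IHH and FAM180B. AQP8, GLIS1, IHH and FAM180B had a ceftaroline median under 1 RPM and passed the filter through the healthy lungs. Their calls follow in part from the filter, and their values depend on the 0.1 RPM added before the log. CA14, another membrane carbonic anhydrase, was at 29.4, 34.8 and 61.4 in healthy lungs and at 0.431, 1.68 and 2.07 in ceftaroline lungs, a difference of -4.84 (SE 0.30, adjusted p = 7.33e-08). IHH, the Indian hedgehog ligand, was at 11.7, 25.5 and 40.5 in healthy lungs and at 0.204, 0.829 and 1.55 in ceftaroline lungs (-4.81, SE 0.37, adjusted p = 5.76e-07). SLC6A2, the noradrenaline transporter, was at 106, 129 and 313 in healthy lungs and at 0.249, 4.07 and 50.1 in ceftaroline lungs (-4.87, SE 0.97), with -4.23 without ceftaroline replicate 6.

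Ceftaroline replicate 7 was the highest of its group for several of these falls. GLIS1, a zinc finger transcription factor, was at 8.81 in replicate 7 against a group median of 0.319 (-5.34, SE 0.64, and -5.95 without replicate 7). METTL7B was at 28.8 in replicate 7 against a median of 1.73 (-5.33, SE 0.74, and -5.96 without it). FAM180B was at 17.7 against 0.331 (-4.62, SE 0.87, and -5.31 without it). Without replicate 7 the count over all genes was 5852, 3189 higher and 2663 lower.

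Set beside the lungs that had pneumonia and ventilation with NaCl, the ceftaroline lungs gave no call at the same threshold. Of 9462 genes tested with limma, 0 were called (0%), the lowest adjusted p was 0.124, and 1705 had an unadjusted p under 0.05. edgeR called 0, DESeq2 called 521 (263 higher and 258 lower in ceftaroline lungs), and limma with all 5 groups of the series in the fit called 408 (303 higher and 105 lower). Without NaCl replicate 1 limma called 174, and the authors' deposited table gives an adjusted p under 0.05 for 501 genes. Against the 4 NaCl lungs without a title ending limma called 1. The count thus turns on the tool and on the NaCl libraries used.

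NaCl and healthy lungs differed in 2971 genes that were higher (31.1%) and 2824 that were lower (29.5%) in NaCl lungs, of 9565 tested. That comparison shares its healthy libraries with the main one, so the values are set side by side without a test of their likeness. For the cytokines the list medians were 5.69 in ceftaroline and 6.25 in NaCl lungs, and 7 members rose in each comparison. For IL6 the difference from healthy lung was 8.71 in ceftaroline and 11.87 in NaCl lungs, for CXCL8 7.49 and 9.25, for CAMP 4.15 and 7.56, and for ADAMTS4 6.58 and 9.44. For CCL2 it was 6.69 and 6.58, for ARG1 6.76 and 5.96 and for AQP8 -6.53 and -6.14. Directly between ceftaroline and NaCl lungs, IL6 differed by -3.16 (SE 1.19, adjusted p = 0.194), CAMP by -3.40 (SE 1.05, adjusted p = 0.155) and ADAMTS4 by -2.86 (SE 1.07, adjusted p = 0.194), none past the threshold. Without ceftaroline replicate 7 they were -2.19, -2.79 and -2.05, and against the 4 NaCl lungs without a title ending, a choice made after seeing the data, -2.99, -3.25 and -2.55.

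HAS2 was at 9.67, 157 and 409 in NaCl lungs and at 5.65, 15 and 45.8 in ceftaroline lungs. It differed by -2.71 by limma (SE 0.68, adjusted p = 0.126), and by -3.30 (adjusted p = 0.0114) without NaCl replicate 1, the lowest NaCl lung. HAS2 was also called with DESeq2 (-3.06, adjusted p = 0.000126) and by limma with all 5 groups in the fit (-2.69, adjusted p = 0.0334). Against the 4 NaCl lungs without a title ending it differed by -1.75 (adjusted p = 0.263). In the main limma fit no member of the interferon or class II list was called between ceftaroline and NaCl lungs. The interferon list had a median of 2.70 from healthy lung in ceftaroline and 1.80 in NaCl lungs, with 10 and 8 of 10 risen. By lung, its median was 0.35 to 0.84 in the 3 NaCl lungs whose titles end in PG, 2.22 to 3.38 in the other 4 NaCl lungs and 0.79 to 3.91 in ceftaroline lungs. The class II list had medians of 0.36 and -0.05, with 3 and 0 of 9 risen. By lung it ran from -0.71 to -0.52 in the PG lungs, from -0.04 to 0.75 in the other 4 NaCl lungs and from -0.46 to 1.31 in ceftaroline lungs. For both lists the ceftaroline lungs thus overlapped the NaCl lungs without an ending. CIITA differed by 1.37 between ceftaroline and NaCl lungs by limma (SE 0.38, adjusted p = 0.139). It was called with DESeq2 (1.35, adjusted p = 0.0199) and by limma with all 5 groups in the fit (1.4, adjusted p = 0.0218). Without NaCl replicate 1 limma called it too (1.58, adjusted p = 0.0418). Against the 4 NaCl lungs without an ending CIITA differed by 0.92 and was not called by limma (adjusted p = 0.294).

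The genes with the lowest p between ceftaroline and NaCl lungs were looked at by whether they were also called against healthy lung. The 5 that were called against healthy lung, HMGA1, GTF3C2, C1S, TMEM106B and NLE1, had a limma adjusted p of 0.124 between ceftaroline and NaCl lungs. DESeq2 called all 5 between these lungs. The genes were picked by these same comparisons, so the separation of their groups follows in part from that choice. HMGA1, a chromatin protein of growing cells, was at 0.814, 3.45 and 4.99 in healthy lungs, at 5.85, 11.2 and 12 in ceftaroline lungs and at 13.2, 21.3 and 28.6 in NaCl lungs. Its 3 groups did not overlap, and it differed from healthy lung by 1.61 (SE 0.34, adjusted p = 0.00105) and from NaCl lung by -1.20 (SE 0.22). GTF3C2, a subunit of a factor for RNA polymerase III, ran from 60.9 to 68.9 in healthy lungs, from 35.7 to 58.7 in ceftaroline lungs and from 26.5 to 33.6 in NaCl lungs, and differed from healthy lung by -0.42 (SE 0.12, adjusted p = 0.00584).

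NLE1, a ribosome assembly factor, differed from healthy lung by 0.64 (SE 0.18, adjusted p = 0.00668), lost under library totals (0.38, adjusted p = 0.171). TMEM106B, a lysosomal membrane protein, differed from healthy lung by -0.43 (SE 0.16, adjusted p = 0.0311). That TMEM106B call was lost without healthy replicate 5 or 6 and without ceftaroline replicate 1, 2 or 6, with an adjusted p of up to 0.062.

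The other 5, PAQR8, SDR39U1, GLOD4, DENND6A and TUFT1, were not called against healthy lung by limma. They were picked for that, so their closeness to healthy lung follows in part from the choice. PAQR8, a membrane progestin receptor, was at 4.08, 5.77 and 7.16 in healthy lungs, at 2.67, 4.7 and 5.45 in ceftaroline lungs and at 1.39, 1.92 and 2.31 in NaCl lungs. It differed from healthy lung by -0.41 (SE 0.20, adjusted p = 0.0832) in ceftaroline lungs and by -1.55 (SE 0.19, adjusted p = 4.95e-06) in NaCl lungs. The ceftaroline difference of PAQR8 passed with DESeq2 (-0.48, adjusted p = 0.0282), under library totals (-0.67, adjusted p = 0.0254), under DESeq2 size factors (-0.50, adjusted p = 0.0431) and without healthy replicate 2 (-0.49, adjusted p = 0.049). GLOD4 ran from 137 to 197 in healthy lungs, from 132 to 155 in ceftaroline lungs and from 86.8 to 115 in NaCl lungs, and differed from healthy lung by -0.10 (SE 0.10, adjusted p = 0.376). GLOD4 was called lower under library totals (-0.36, adjusted p = 0.0337) and with DESeq2 (-0.19, adjusted p = 0.0484). DENND6A, at -0.31 (adjusted p = 0.147), was called lower under library totals (-0.57, adjusted p = 0.033). SDR39U1 lay at 0.15 from healthy lung (adjusted p = 0.547) and at -0.11 under library totals, so it has no direction.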

How the data were processed

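Total RNA of lung pieces was made into stranded mRNA libraries and sequenced as single reads of 75 bp, with demultiplexing by bcl2fastq2 2.18.12 and adapter trimming by Cutadapt 1.15, per the labels' protocols. The submitters' processing notes name TopHat2 2.1.1, featureCounts 1.5.2 and DESeq2 1.24.0, and no source used here gives the genome build or the annotation. The authors deposited 4 tables whose library columns hold a signal. It was taken to be reads per gene divided by a size factor of that table, which the column names do not state. The tables also hold the authors' log2 fold changes, p-values, adjusted p-values and test scores, of which only those for ceftaroline against NaCl were used.

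Whole reads were recovered from the deposited signal: 1325464 of 1325464 values (100%) came out whole within a relative tolerance of 1e-06. Tables were joined by gene identifier. In R 4.3.3, the 21 healthy, NaCl and ceftaroline libraries were scaled jointly by TMM (edgeR 4.0.16). limma 3.58.1 with an intensity trend, two-sided, was fitted to log2(RPM + 0.1), with RPM the reads of a gene scaled to library size, for 7 against 7 libraries, over genes with at least 1 RPM in at least 7 of the 14, with Benjamini-Hochberg adjustment over all of them. It was tested on simulated data. edgeR quasi-likelihood, DESeq2 1.42.0 with its own size factors, limma voom, other filters, scalings and pseudocounts, thinning to the shallowest library and leaving out each library were tried. The depth per library ran from 7567008 to 33209729 reads, and no 2 libraries of a group agreed within sampling noise (the closest pair had a chi-square of 39.38 per degree of freedom).

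The genes named are the 8 largest rises and 8 largest falls without overlap and with a mean of at least 5 RPM, for each of 30 lists the 2 tested genes lowest in p, a panel of 13 genes, and the 5 genes with the lowest p between ceftaroline and NaCl lungs among those called against healthy lung and the 5 among those not called. Further list members are given as values. The members and lists were chosen with earlier results of these data known. Libraries of the 2 other groups entered only the fit of all 5 groups. Some members of the gene lists are counted but not reported by name here.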

Additional observations from a re-analysis of the deposited data

Results flagged for a closer look

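Of 176 pairs of a named gene and a group of 7 libraries, 16 had a highest or lowest library set apart from the rest by a wide gap on the log2 scale, 13 in healthy lungs and 3 in ceftaroline lungs. Such a gap arises by chance in about 1 of 20 groups.

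Healthy replicate 6 held 9 of them, and it is the healthy library whose title ends in PG. In RPM it was the lowest healthy library for OAS2 (5.9), CXCR1 (3.76), CIITA (26), MCM2 (3.97), IL10 (0), HMGA1 (0.814) and NLE1 (4.68). It was the highest healthy library for IRAK3 (72.5) and GLOD4 (197). Its median over the B and plasma cell markers was -2.53 from the healthy mean, and over the T and NK cell markers -1.45.

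Healthy replicate 7 was the highest healthy library for the neutrophil granule gene CAMP (101, the next at 7.86) and the lowest for the type I cell gene RTKN2 (4.47). Its median over the neutrophil markers was 2.15 above the healthy mean. Healthy replicate 3 was the lowest for CXCL8 (3.62) and healthy replicate 2 the highest for SLC6A2 (313).

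Ceftaroline replicate 7 held the 3 in the ceftaroline group. It was the lowest ceftaroline lung for CCL2 (282, the next at 980) and for TNF (5.25, the next at 37.2), and the highest for GLIS1 (8.81, the next at 0.845).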

How the results depend on the processing

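Between ceftaroline and healthy lungs, the count of 5536 genes (3035 higher, 2501 lower) ranged from 5091 to 5852 when 1 library was left out (2783 to 3189 higher, 2308 to 2663 lower), and from 4603 to 6077 over the other filters, pseudocounts, tools, TMM and DESeq2 scalings and thinning. The tools shared 5311 (edgeR), 5285 (DESeq2) and 5451 (limma voom) of the calls. Scaling by library totals left 1946 higher and 3151 lower. With the 2 healthy libraries without a title ending it was 1931 genes (1150 higher, 781 lower), and with the 2 ceftaroline libraries marked S1 and S2 it was 1912 (981 higher, 931 lower); both leave 2 libraries in a group. A log2 difference of at least 1 kept 2854 (1403 higher, 1451 lower).

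Between ceftaroline and NaCl lungs the count of 0 became 521 with DESeq2 (263 higher, 258 lower), 408 with all 5 groups fitted (303 higher, 105 lower) and 1 (lower) without the NaCl libraries that carry a title ending, a choice made after seeing the data. Leaving out 1 library gave 0 to 174 (0 to 105 higher, 0 to 69 lower), with 174 without NaCl replicate 1 (105 higher, 69 lower) and 1 (higher) without NaCl replicate 3. The cause was not tested.

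Over 88 named genes and 31 settings against healthy lung, 2648 results kept direction and call, 50 (24 genes) lost the call and 16 (5 genes) gained it. Direction turned for KRT19 (-0.13 with library totals, -0.01 to 0.25 when 1 library was left out and -0.01 without ceftaroline replicate 5, -0.02 with ceftaroline S10 to S14, and -0.01 with healthy titles beginning with A, an added choice), for SDR39U1 (-0.11 with library totals, -0.01 with healthy titles that carry an ending) and for TUFT1 (0.06 with ceftaroline S1 and S2). No paired analysis was possible because the replicate numbers only follow accession order, the healthy titles repeat numbers, and the labels do not say that 2 libraries share a rabbit. Genes near 0 in healthy lungs are limited by depth.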

Other observations

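Some genes spread within a group more widely than between groups. CFAP61 is one of the ciliary genes counted above as lower. It was at 221 to 488 RPM in 6 healthy lungs and at 1.21 in healthy replicate 3. In ceftaroline replicates 3 and 7 it was at 219 and 189, against 0.564 to 2.55 in the other ceftaroline lungs. CA4, a carbonic anhydrase of capillary endothelium, ran from 237 to 403 in healthy lungs and from 30.1 to 2800 in ceftaroline lungs, highest in replicate 6. Its difference of -0.94 (SE 0.79) did not pass (limma adjusted p = 0.321). The airway gene BPIFA1 ran from 0.453 to 241 in healthy lungs and from 0.768 to 107 in ceftaroline lungs (limma adjusted p = 0.386).

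SGK1, a kinase that glucocorticoids and salt balance regulate, fell by 1.71 (SE 0.42, limma adjusted p = 0.00272), from 296 to 653 in healthy lungs to 43.6 to 378 in ceftaroline lungs. In NaCl lungs it ran from 71 to 1230.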
